A study of Schmidtea mediterranea with 6 samples.

Results

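The contigs described here are 4 transcripts of the planarian *Schmidtea mediterranea* whose best human matches are proteins of the dynein motor or proteins that bind microtubules, among 28742 contigs counted. They are dd_Smed_v6_4065_0_1 (DCTN1 match), dd_Smed_v6_958_0_1 (EML1 match), dd_Smed_v6_1140_0_1 (DYNC1H1 match) and dd_Smed_v6_116_0_1 (DYNLL2 match). They were chosen because the study lists them as different between *hmcn-1(RNAi)* and control animals. Their levels in these conditions therefore describe the choice and are given without a test. The names are best matches to human proteins, so which planarian gene of a family each contig represents is not settled by them.

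All animals were of the strain CIW4, a clonal asexual line. They were fed double-stranded RNA mixed with liver in 4 feedings over 13 days. The control RNA targeted *unc-22*, a *C. elegans* sequence that planarians lack, and the other RNA targeted *hmcn-1*, the gene of hemicentin-1, a large extracellular matrix protein. Poly(A) RNA was sequenced from tail fragments, with 5 tails pooled in each library and 3 libraries per condition, so the spread between libraries is that between pools. The question behind the comparison is what differs early after *hmcn-1* inhibition. The study describes the animals at this early time as similar to controls in their RNA sequencing. Levels are given as CPM, reads relative to the scaled library total over the contigs with enough reads for the test. The *hmcn-1* contig had a control mean of 205 ± 0.967 CPM (SD, n = 3) against a knockdown mean of 17.9 ± 1.05 CPM (SD, n = 3), so 8.71% of the control level was left.

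Cytoplasmic dynein is the motor that walks toward the minus ends of microtubules and carries organelles, vesicles, and mitotic components. Its heavy chain holds the motor domain, and its light chains bind other subunits and cargo. Dynactin is the cofactor that links dynein to cargo and keeps it on its track. EML proteins bind microtubules directly and bring no motor activity. In planarians, cilia of the ventral epidermis and of the excretory system use related axonemal dyneins, whereas the cytoplasmic motor works in most cells.

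Reads were counted per contig of a transcriptome assembly, without genome coordinates. Library totals ranged from 6374450 to 11887127 reads, and CPM were computed after scaling between libraries with TMM factors (0.977 to 1.02). Because contig lengths were not used, a CPM compares libraries for the same contig and not contigs with each other. Between conditions, 173 of the 15333 contigs with enough reads were called different by edgeR's quasi-likelihood test at an adjusted p under 0.05. This is 1.13% of the contigs tested, with 0.515% called higher after knockdown and 0.613% called lower. The count of calls dropped to 75 when control replicate 3 was left out. It was 88 when the first *hmcn-1(RNAi)* replicate was left out, 160 for the second one and 91 for the third one. Without control replicate 2 it was 120, and without control replicate 1 it rose to 255. The fold change was within 1.2-fold for 85.4% of the contigs tested. For 15.6% of the contigs tested, all 3 libraries of a condition lay above all 3 of the other. All 4 contigs described here are among both the called and the non-overlapping ones, which is a description, since they were chosen from this comparison. Their lack of overlap beside other contigs of their abundance is part of that choice. In the plot of fold change against level, the 4 contigs stand off the band around 0 in which most contigs of their abundance lie.

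**Figure D1:**
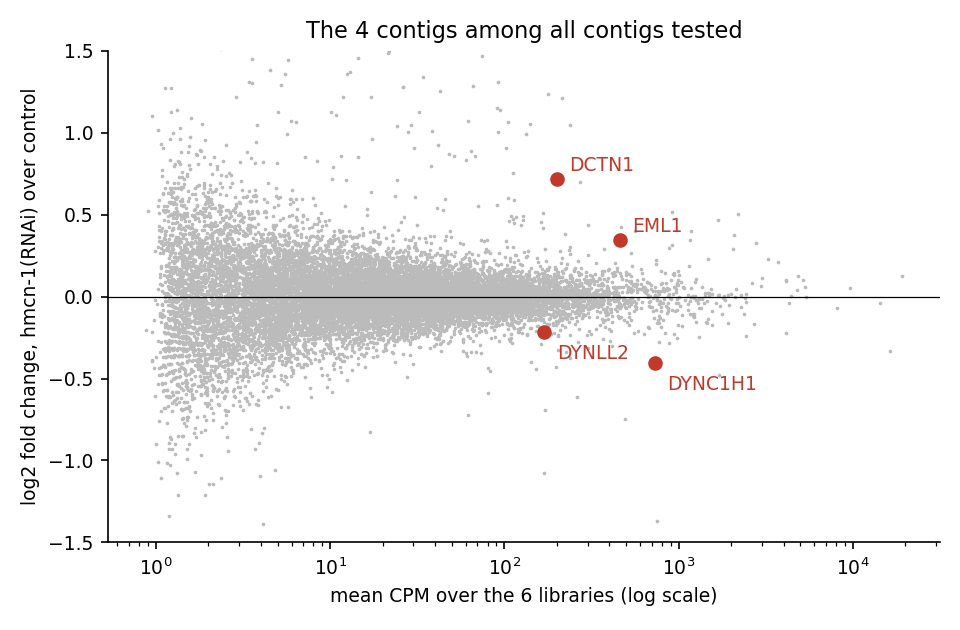
Log2 fold change of *hmcn-1(RNAi)* over control (vertical axis) against mean CPM over the 6 libraries (horizontal log axis) for the contigs tested. Grey points are single contigs, of which 31 lie outside the plotted range, and the red points are the DCTN1, EML1, DYNC1H1 and DYNLL2 matches, at 0.72, 0.34, -0.40 and -0.22.

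The contig with the best match to the dynactin subunit DCTN1 was higher after *hmcn-1* inhibition. DCTN1 is the large subunit of dynactin that contacts both dynein and the microtubule. Its raw reads numbered 866, 1354 and 1283 in control tails, against 2153, 2094 and 2926 after knockdown. Scaled, these were 139.5, 158.6 and 155.6 CPM in control replicates 1 to 3. In the *hmcn-1(RNAi)* replicates they were 251.8, 248.2 and 247.5 CPM. Every *hmcn-1(RNAi)* library lay above every control library, with 88.9 CPM between the nearest libraries, and control replicate 1 was the lowest of all. The mean was 151 ± 10.3 CPM (SD, n = 3) in control tails against 249 ± 2.32 CPM (SD, n = 3) after knockdown. This is 1.65 times the control level, a log2 fold change of 0.72 (standard error 0.0477). Among the 815 contigs with at least as many reads, 2 had a larger increase, and the libraries of both conditions overlapped in each of them. The study assigns the DCTN1 match to *cathepsin*+ cells, a class of phagocytic and pigment-related cells in the parenchyma. The *cathepsin*+ list holds 37 contigs from the study's tables of matrisome candidates. Its members were not chosen on these libraries, but the cell-type lists were taken up with earlier results of these data known. The 37 contigs summed to between 15720 and 16485 CPM in control tails, against 16012 to 17083 CPM after knockdown. None of the 37 was at 0 in all libraries, and the median log2 fold change of the list was 0.05. Of the 37, 23 were higher and 14 lower, and edgeR called 0, where 1.13% of all contigs tested were called. The part of these cells in the result was not tested. In whole tails, more cells of a type and more RNA per cell cannot be told apart.

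The EML1 match was also higher in *hmcn-1(RNAi)* tails. EML1 coats microtubules, and in mice its loss disturbs the spindle of dividing neural progenitors. The contig had 2438, 3527 and 3387 reads in control tails, against 4392, 4455 and 5952 after knockdown. These correspond to 392.7, 413.1 and 410.8 CPM in control replicates 1 to 3. The *hmcn-1(RNAi)* replicates were at 513.7, 528.0 and 503.5 CPM. The conditions were separated by 90.4 CPM, and control replicate 1 was again the lowest library. Control tails averaged 406 ± 11.2 CPM (SD, n = 3) and knockdown tails 515 ± 12.3 CPM (SD, n = 3), and the log2 fold change was 0.34 (standard error 0.0399). Among the 298 contigs with at least as many reads, 7 had a larger increase, and the conditions did not overlap in 1 of the 7. The study assigns this contig to neural cells. The 10 contigs of the neural list summed to between 1096 and 1134 CPM in control tails, against 1010 to 1058 CPM after knockdown, so the list was lower where the EML1 match was higher. None of the 10 was at 0 in all libraries and none was called by edgeR, where 1.13% of all contigs tested were called. A negative fold change was found for 8 of the 10, against 49.98% of all contigs tested. The part of neural cells in the higher EML1 match was not tested.

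The DYNC1H1 match was lower in *hmcn-1(RNAi)* tails. DYNC1H1 is the heavy chain of human cytoplasmic dynein, which carries the motor domain. It had 5168, 7079 and 6894 reads in control tails, against 5519, 5300 and 7273 after knockdown. Scaled, the control replicates 1 to 3 were at 832.4, 829.1 and 836.1 CPM. The *hmcn-1(RNAi)* replicates were at 645.5, 628.2 and 615.2 CPM. The control libraries were nearly equal, and all 3 *hmcn-1(RNAi)* libraries lay at least 184 CPM below them. The mean was 833 ± 3.50 CPM (SD, n = 3) in control tails against 630 ± 15.2 CPM (SD, n = 3) after knockdown, or 75.6% of control, with a log2 fold change of -0.40 (standard error 0.0375). Among the 186 contigs with at least as many reads, 2 had a larger decrease, dd_Smed_v6_451_0_1 and dd_Smed_v6_297_0_1, which were chosen here after their values were seen. Their control libraries had SDs of 668 and 677 CPM on means of 1080 and 1986 CPM, against 3.50 CPM for the DYNC1H1 match. The DYNC1H1 match was chosen from a comparison in which a small spread favours a call, so its smaller SD is part of that choice. The conditions did not overlap in dd_Smed_v6_451_0_1 and overlapped in dd_Smed_v6_297_0_1. The study assigns the DYNC1H1 match to parapharyngeal cells, which lie around the feeding tube. No contig assigned to these cells reached the specificity cut of the other lists (AUC above 0.7), so all 8 assigned contigs were taken. They summed to between 11060 and 11788 CPM in control tails, against 10138 to 12040 CPM after knockdown, so that the conditions overlapped. None of the 8 was at 0 in all libraries. Of the 7 with enough reads for the test, 5 had a negative and 2 a positive fold change, where 49.98% of all contigs tested had a negative one. EdgeR called 1 higher and 0 lower, against 0.515% and 0.613% of all contigs tested. The part of parapharyngeal cells in the lower DYNC1H1 match was not tested.

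The DYNLL2 match was lower as well, by the smallest amount of the 4 on the log2 scale. DYNLL2 is a dynein light chain that also joins many protein complexes without dynein, among them myosin V. The contig had 1145, 1600 and 1428 reads in control tails, against 1379, 1290 and 1833 after knockdown. The control replicates 1 to 3 were at 184.4, 187.4 and 173.2 CPM. The *hmcn-1(RNAi)* replicates were at 161.3, 152.9 and 155.1 CPM. The conditions did not overlap, but the nearest libraries, control replicate 3 and *hmcn-1(RNAi)* replicate 1, were 11.9 CPM apart. Control tails averaged 182 ± 7.49 CPM (SD, n = 3) and knockdown tails 156 ± 4.36 CPM (SD, n = 3), which is 86.1% of control and a log2 fold change of -0.22 (standard error 0.0472). Among the 1078 contigs with at least as many reads, 37 had a larger decrease, and the conditions did not overlap in 31 of the 37. Many of these are named after muscle proteins, such as *troponin* at -0.28 and *tropomyosin* at -0.22, examples chosen after their values were seen. Only contigs that the study's tables list carry a name here, and part of those names come from a list drawn from this comparison. The muscle share among the 1078 contigs was not determined. The study assigns the DYNLL2 match to the epidermis. The 4 contigs of the epidermal list summed to between 2254 and 2363 CPM in control tails. After knockdown the sum was 2137 to 2192 CPM, without overlap. Of these 4 contigs, 3 were lower, where 49.98% of all contigs tested were lower, and edgeR called 0 higher and 0 lower. The 24 contigs of the muscle list summed to between 14412 and 15437 CPM in control tails, against 13116 to 13519 CPM after knockdown. Of the 24, 10 were called lower by edgeR, where 0.613% of all contigs tested were called lower. No contig of either list was at 0 in all libraries, and the part of these cell types in the lower DYNLL2 match was not tested.

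**Figure D2:**
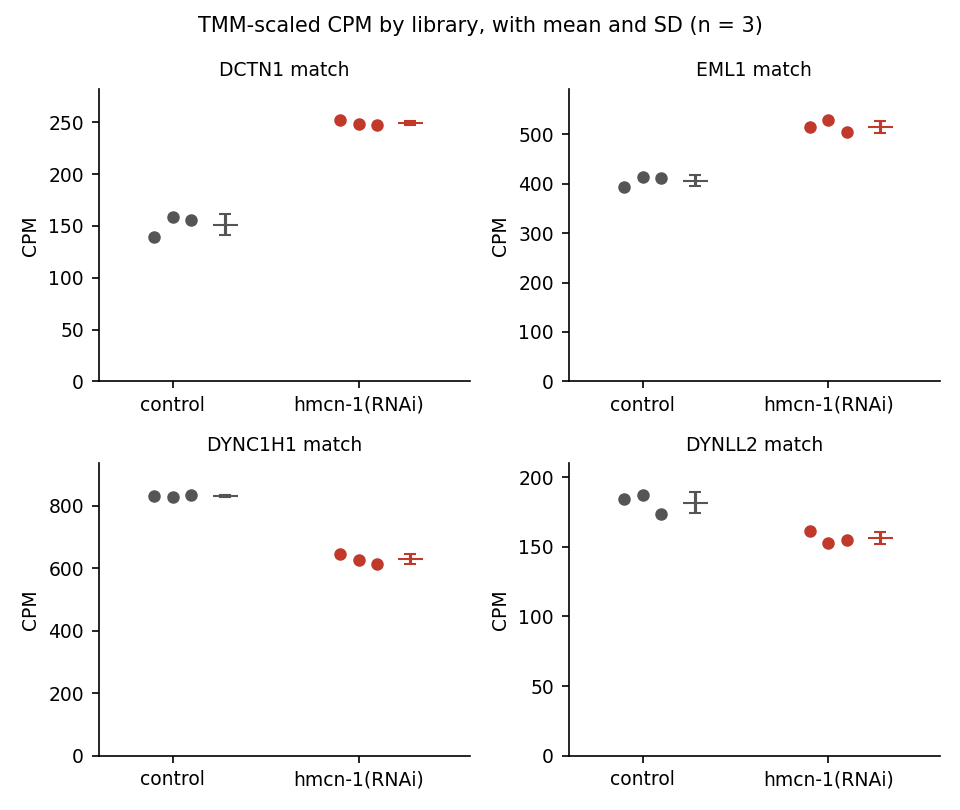
TMM-scaled CPM (vertical axes, from 0) of the DCTN1, EML1, DYNC1H1 and DYNLL2 matches in each control and *hmcn-1(RNAi)* library. Points are libraries of 5 pooled tails in the order of replicates 1 to 3, and the bar beside them is the mean with its SD (n = 3). The conditions are apart in all 4 panels, by 184 CPM for the DYNC1H1 match and by 11.9 CPM for the DYNLL2 match.

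The 4 contigs thus split into a pair that was higher and a pair that was lower. The DCTN1 and EML1 matches together gained 207 CPM, and the mean of the summed DYNC1H1 and DYNLL2 matches differed by -228 CPM. The sum of all 4 was 1571 ± 20.01 CPM (SD, n = 3) in control tails against 1550 ± 26.3 CPM (SD, n = 3) after knockdown, with overlapping conditions. These sums count reads and not molecules, since longer transcripts give more reads. Over the 6 libraries, Pearson's r of log2 CPM was 0.99 between the DCTN1 and EML1 matches and 0.94 between the DYNC1H1 and DYNLL2 matches. Between the pairs it ranged from -0.98 to -0.93. The 6 libraries share the contrast from which the contigs were chosen, so these values restate the split.

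Ratios of reads within a library do not depend on the scaling between libraries. The contigs in them were chosen from this comparison, so the ratios restate their fold changes and are no independent support. The DCTN1 match had 0.168, 0.191 and 0.186 reads per read of the DYNC1H1 match in control replicates 1 to 3. In *hmcn-1(RNAi)* replicates 1 to 3 the ratio was 0.390, 0.395 and 0.402. The mean ratio was 0.182 ± 0.0125 (SD, n = 3) in control tails against 0.396 ± 0.00614 (SD, n = 3) after knockdown, 2.18 times as high. For the EML1 match the ratio to the DYNC1H1 match went from 0.487 ± 0.0137 (SD, n = 3) to 0.818 ± 0.0224 (SD, n = 3), 1.68 times as high. The ratio of the DYNLL2 match to the DYNC1H1 match was 0.218 ± 0.00987 (SD, n = 3) in control tails against 0.248 ± 0.00449 (SD, n = 3) after knockdown. The light chain match was therefore lower by a smaller factor than the heavy chain match, in each library of *hmcn-1(RNAi)* animals against each control. Within the higher pair, the ratio of the DCTN1 to the EML1 match was 0.373 ± 0.0153 (SD, n = 3) in control tails against 0.484 ± 0.0121 (SD, n = 3) after knockdown.

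**Figure D3:**
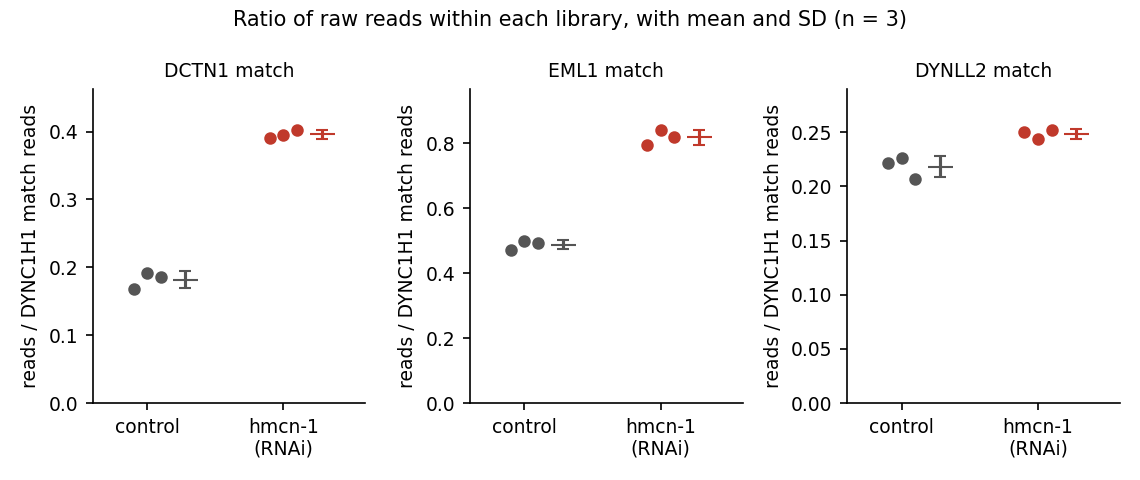
Raw reads of the DCTN1, EML1 and DYNLL2 matches divided by those of the DYNC1H1 match in the same library (vertical axes, from 0), for control and *hmcn-1(RNAi)* libraries. Points are libraries in the order of replicates 1 to 3, and the bar beside them is the mean with its SD (n = 3). All 3 ratios were higher in *hmcn-1(RNAi)* libraries, 2.18, 1.68 and 1.14 times the control mean, for contigs chosen from this comparison.

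The spread between libraries lay above the error of counting in some cases and below it in others. Each coefficient rests on 3 libraries, and whether it departs from counting error was not tested. The contigs were also chosen from a comparison in which a small spread favours a call. In control libraries the coefficient of variation was 0.421% for the DYNC1H1 match, where counting alone gives 1.26%, and 2.76% for the EML1 match, where counting gives 1.82%. After knockdown the spread was above counting for both, at 2.42% against 1.30% for the DYNC1H1 match and at 2.39% against 1.44% for the EML1 match. The DCTN1 match varied most in control, by 6.79% against 2.98% from counting, with control replicate 1 the lowest of the 3. In *hmcn-1(RNAi)* libraries it varied by 0.932%, less than the 2.07% from counting. For the DYNLL2 match the coefficients were 4.12% in control and 2.79% after knockdown, against 2.71% and 2.61% from counting.

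With any 1 library left out, the log2 fold change stayed between 0.67 and 0.75 for the DCTN1 match and between 0.32 and 0.36 for the EML1 match. It stayed between -0.42 and -0.39 for the DYNC1H1 match and between -0.25 and -0.19 for the DYNLL2 match. The lowest value of the DCTN1 match was that without control replicate 1. These ranges describe contigs chosen with all 6 libraries and are no independent support.

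**Figure D4:**
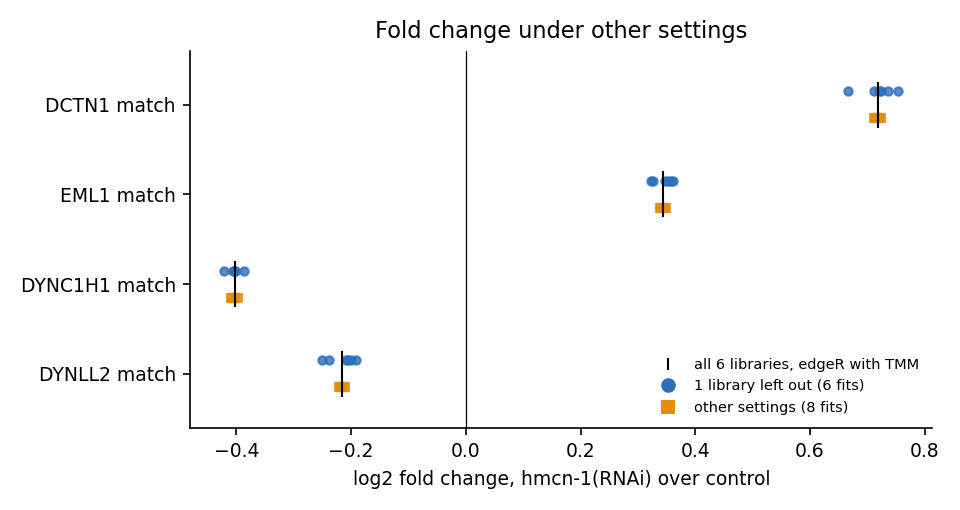
Log2 fold change of *hmcn-1(RNAi)* over control (horizontal axis) of the DCTN1, EML1, DYNC1H1 and DYNLL2 matches. The black mark is the value from all 6 libraries, blue points have 1 library left out, and orange squares use other scaling factors, filters, DESeq2 or a replicate term. No point crosses 0, and the DCTN1 match has the widest range over the left-out libraries, 0.67 to 0.75.

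The contigs with the most similar profile were looked for among the 793 other tested contigs that the study's tables name. For the DCTN1 match these were dd_3132, the EML1 match and the match to the mitochondrial carrier SLC25A30 (Pearson's r of log2 CPM from 0.989 to 0.997 over 6 libraries). For the EML1 match they were dd_3132, the DCTN1 match and a contig with a perilipin domain, which is found in proteins of lipid droplets. For the DYNC1H1 match the closest profile was that of *hmcn-1* itself, followed by the matches to AHCYL2, a relative of adenosylhomocysteinase, and to the ribosomal protein S6 kinase RPS6KB2. Their own log2 fold changes were -3.53, -0.73 and -0.61. For the DYNLL2 match the profiles were those of the myosin light chain match MYL9, the muscle transcription factor *myoD* and the PDZ and LIM domain match PDLIM2, with r from 0.97 to 0.98. Their log2 fold changes were -0.27, -0.28 and -0.33. All 6 libraries share the 2 conditions, and most of these contigs were themselves listed from this comparison.

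Other microtubule proteins that the study's tables name were compared in the same fit. The 2 tubulin matches come from the same list as the 4 contigs and are described without a test. The TUBA1A match, an alpha-tubulin, was at 685 ± 19.6 CPM (SD, n = 3) in control tails against 798 ± 38.8 CPM (SD, n = 3) after knockdown, or a log2 fold change of 0.22 (standard error 0.0403). The TUBB4B match, a beta-tubulin, was at 145 ± 5.10 CPM (SD, n = 3) in control tails against 124 ± 6.61 CPM (SD, n = 3) after knockdown, with -0.23 (standard error 0.0509). Alpha- and beta-tubulin form the dimer from which microtubules are built, and the contigs of the pair differed in opposite directions. Tubulins are families of similar sequences, and reads that fit several contigs may be shared between them.

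The study's lists give the next contigs with the IDs of an earlier assembly, dd_Smed_v4, and they were found in the count table by contig number. Among 765 contigs with an ID in both assemblies, all 765 had the same contig number. The 7 contigs from gene lists of cell cycle, protein secretion and myogenesis were the matches to the kinesins KIF1B, KIFC3, KIF20B and KIF23, to the proteins MAPRE3 (listed as MARE3) and NAV2, which bind growing microtubule ends, and to ZW10, which recruits dynein to kinetochores. The study did not draw those lists from these libraries, but the 7 were picked from them with earlier results of these data known. None of the 7 was called by edgeR's quasi-likelihood test or by DESeq2, and 1 had an unadjusted p under 0.05 in edgeR and 0 in DESeq2. With independent filtering, DESeq2 gave an adjusted p for only 3 of the 7, so the rest could not be called there. Without that filtering all 7 had one. Over all contigs tested, 1690 of 15333 had an unadjusted p under 0.05 in edgeR. Of the 7, 4 had a positive and 3 a negative log2 fold change, with a median of 0.0015, where that of all contigs tested was 8.85e-05. The KIFC3 match, a kinesin that moves to the minus end as dynein does, had the lowest p. It was at 11.8 ± 0.572 CPM (SD, n = 3) in control tails against 14.4 ± 0.735 CPM (SD, n = 3) after knockdown, or a log2 fold change of 0.28 (standard error 0.120, Benjamini-Hochberg adjusted p = 0.368 in the edgeR fit). The ZW10 match had a log2 fold change of 0.14 (standard error 0.0754, adjusted p = 0.494 from the same edgeR test). In these 2 contigs the libraries of the conditions did not overlap, as in 15.6% of all contigs tested. The KIF1B match, a kinesin of vesicle transport toward the plus end, was at 84.1 ± 4.67 CPM (SD, n = 3) in control tails against 84.2 ± 3.65 CPM (SD, n = 3) after knockdown. The MAPRE3 match was at 197 ± 7.64 and 189 ± 3.46 CPM (SD, n = 3 each), a log2 fold change of -0.06 (standard error 0.0452). The mitotic kinesin matches KIF20B and KIF23 had log2 fold changes of -0.03 and 0.02 with standard errors of 0.129 and 0.105, against 0.0472 for the DYNLL2 match, at a mean depth of 102 and 156 reads per library. The NAV2 match had -0.03 (standard error 0.0611).

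**Figure D5:**
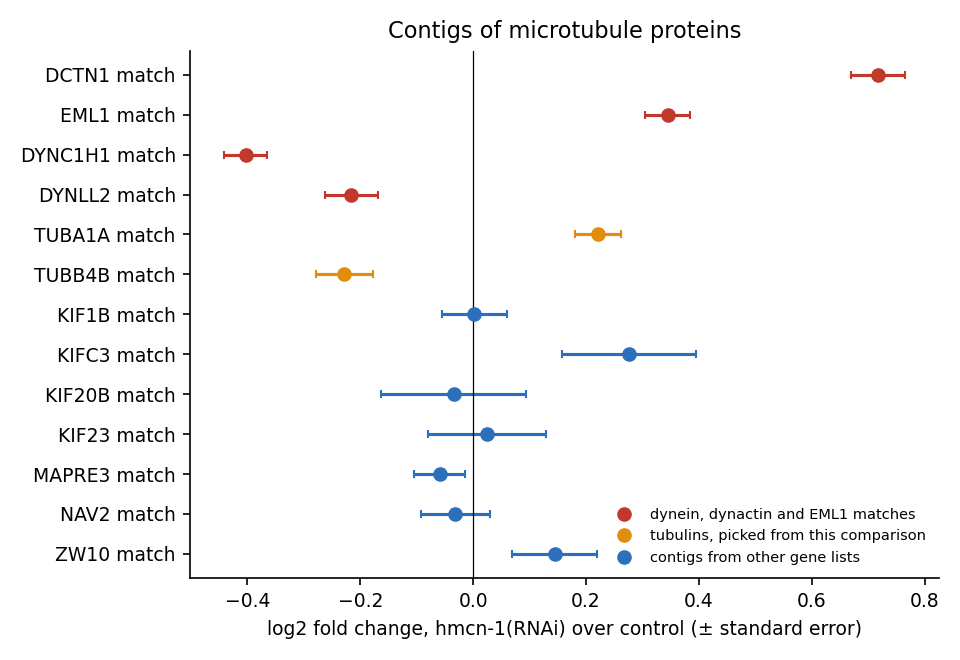
Log2 fold change of *hmcn-1(RNAi)* over control (horizontal axis) with its standard error for contigs matching microtubule proteins. Red marks the 4 contigs described here and orange the tubulin matches, which were picked from this comparison, and blue the 7 contigs from other lists, which lie between -0.06 and 0.28.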

How the data were processed

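Poly(A) RNA from tails was sequenced in 3 control and 3 *hmcn-1(RNAi)* libraries. The authors mapped reads with Bowtie 1.2.2 (option -best) to the dd_Smed_v6 transcriptome, joined isotigs of a contig and deposited raw counts, without normalization. The kit keeps strand, but the sources used here do not give whether counting used it, nor how reads that fit several contigs equally well were placed. A deposited table of the authors' DESeq2 comparison was not used. Contig sequences and lengths were not used here.

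Counts were filtered with filterByExpr (minimum count 10), scaled with TMM and compared in edgeR 4.0.16 (R 4.3.3) by a robust quasi-likelihood test with 1 term, the condition, and Benjamini-Hochberg adjustment over 15333 contigs. The standard error is the log2 fold change divided by the square root of F. Replicates are pools of tails, and whether pools came from separate RNAi experiments is not given. No library was a copy of another (chi-square per degree of freedom 2.24 to 9.63 over 15 pairs). Control replicate 1, which had the fewest reads (6374450), stood apart from the other controls over all contigs. It was at 9.63 against control replicate 2 and at 7.77 against control replicate 3. Control replicates 2 and 3 were at 2.77 against each other, and pairs of *hmcn-1(RNAi)* libraries were at 2.24 to 3.52. The fit was also run on simulated counts with known changes, in which all contigs had the same relative spread beyond counting. Contigs with a larger spread, as in the real libraries, are not covered by that run. Alternatives were RLE, upper quartile or no factors, no filter, at least 100 counts in 3 libraries, DESeq2 1.42.0, a replicate term and each library left out.

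Names listed under dd_Smed_v4 IDs were matched to dd_Smed_v6 by contig number (751 of 765 contigs with both IDs had identical IDs apart from the version, and all 765 the same contig number). The 4 contigs and all lists were chosen with earlier results of these data known. For the cell-type lists this holds for the decision to use them, while their members follow the study's cell-type assignments and not these libraries. Cell-type lists are contigs of the study's tables of matrisome genes and excluded genes with an AUC above 0.7 (parapharyngeal: all assigned, since none was above 0.7). Contigs named besides the 4 are *hmcn-1*, the microtubule list and the 3 named contigs with the most similar profile, except where stated and except the *troponin* and *tropomyosin* examples. Of the lists not given in the report, the 14 tested intestine contigs had a median log2 fold change of 0.11, the 10 tested pharynx contigs 0.0027 and the 5 protonephridia contigs 0.08. Of the intestine contigs 12 were higher and 2 lower, and edgeR called 2 higher and 0 lower, against 0.515% and 0.613% of all contigs tested. It called 0 of the pharynx and 0 of the protonephridia contigs.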

Additional observations from a re-analysis of the deposited data

How the results depend on the processing

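The log2 fold changes of the DCTN1, EML1, DYNC1H1 and DYNLL2 matches moved by less than 1 SD between libraries in all 14 alternatives. The ratio of the DCTN1 to the DYNC1H1 match stayed between 2.10 and 2.24 times control with any library left out. These contigs were chosen from this comparison with all libraries, so neither result is independent support. The number of contigs called was 339 without a filter on low counts, 111 in DESeq2, 66 in DESeq2 without independent filtering, and 75 to 255 with 1 library left out, where it was 173 in all 6. The cause was not tested. With the replicate number as a block it was 292, although same-numbered libraries deviated together hardly more (r 0.014 to 0.084 over contigs) than others (-0.063 to 0.043), and control replicate 1 correlated best with *hmcn-1(RNAi)* replicate 3. The block changed no call among the 7 listed contigs.

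The KIF1B match turned to -0.0050 with upper quartile factors and to -0.0035 with library totals alone. With 1 library left out, the fold change ranged from -0.036 to 0.045 for KIF1B, -0.11 to 0.037 for KIF20B, -0.052 to 0.073 for KIF23 and -0.070 to 0.029 for NAV2, so these have no stable direction. No alternative called any of the 7, but DESeq2 with independent filtering gave an adjusted p for only 3 of them.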
